A study of Mus musculus with 2 samples.

Results

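The cells described here are regulatory T cells (Tregs) of a global *Tnfrsf9* knockout in which at least 1 *Tnfrsf9* UMI, a uniquely tagged transcript, was still counted. They were selected on their *Tnfrsf9* UMIs and compared with Tregs of the same library that had none. There were 352 such cells among 1233 knockout Tregs, and 5629 cells of both libraries passed the cell filter. The selection was made on a measured value, so the *Tnfrsf9* level itself is given as a description.

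The study profiled T cells from pancreatic islets of prediabetic NOD females, an inbred strain that develops autoimmune diabetes. The wild-type library was prepared from animals of the strain NOD.Foxp3-eGFP, and the knockout library from NOD.Tnfrsf9-/-.Foxp3-eGFP animals, in which every cell carries the *Tnfrsf9* deletion. Each library pooled 6 females of 9 to 10 weeks, so the mice cannot be separated, and both strains carry a *Foxp3* reporter that makes Tregs fluoresce green. CD8 T cells and GFP+ CD4 Tregs were sorted and loaded together on the Chromium 3′ version 2 system. There was 1 library per genotype. Every interval below is a 95% interval that covers counting error only, no p-value is given, and nothing here measures the spread between mice.

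*Tnfrsf9* encodes CD137 (4-1BB), a costimulatory receptor of the TNF receptor family that T cells display after stimulation through the T cell receptor (TCR). It recruits TRAF1 and TRAF2 and signals through NF-κB, and among Tregs it marks recently activated and tissue-resident cells. A splice form without the membrane-spanning part is released as soluble CD137.

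The methods available here do not say which exons the global knockout removes, nor whether intronic reads were counted for these libraries. A 3′ count that lies outside the deleted part does not check the deletion, so the *Tnfrsf9* UMIs of the knockout are read as transcripts of the locus and not as receptor. The library labelled knockout held 123 *Tnfrsf9* UMIs per 1000000 UMIs (CPM) over its Tregs (interval 115 to 133), and the wild-type library held 385 (370 to 400.3 CPM).

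The locus lies on chromosome 4 of GRCm38 at 150914562 to 150946102, on the plus strand. RefSeq (GRCm38.p6) lists 2 transcript starts for it. The 250 bases before the downstream start hold 1 match to a κB motif (GGG, any 2 bases, TTTCC) and 1 to the AP-1 motif TGANTCA, and the 250 bases before the upstream start hold neither. These are the 2 kinds of element through which TCR and TNF receptor signals reach many genes, so the matches are shown with 6 bases on each side and the match in capitals. The *Nfkbia* match is given for comparison, since *Nfkbia* (the inhibitor IκBα) is a textbook NF-κB target measured below.
*Tnfrsf9* κB, plus strand, chr4:150927950-150927971: gcagctGGGGATTTCCcaggag
*Tnfrsf9* AP-1, plus strand, chr4:150927978-150927996: ctcagtTGAGTCAcaggtc
*Nfkbia* κB, minus strand, chr12:55492661-55492682: tggcttGGAAATTCCCcgcgcc

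The matches begin 43, 15 and 29 bases before their starts. Both strands were searched, the 2 motifs do not overlap here, and the motifs were chosen after the *Tnfrsf9* sequence had been seen. Of all 32851 RefSeq windows of this length, 1.41% held the κB letters and 6.75% the AP-1 letters. A match in letters is not a bound site, and the counts do not show which start the knockout transcripts used.

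Each library was first checked as a whole. The knockout library held 2991 barcodes and 19639995 UMIs (median 4935 per cell), of which 2915 barcodes passed the filter of 200 to 5000 genes and at most 20% mitochondrial UMIs; the wild-type library held 2804 and 2714 barcodes and 19904506 UMIs. The libraries shared 16 barcodes, 3 of them Tregs in both. No doublet caller was run, and the Treg rule admits no cell with a *Cd8a* or *Cd8b1* UMI.

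The Treg label was checked on genes that the rule did not use. *Ctla4*, an inhibitory receptor of Tregs, was counted in 97.4% of the *Tnfrsf9*-positive and 91.9% of the *Tnfrsf9*-negative knockout Tregs, against 42.2% of 837 knockout CD8 T cells. *Tnfrsf4* (OX40) was counted in 91.5%, 70.8% and 9.92% of these cells, and *Izumo1r* (FR4) in 93.2%, 83.5% and 19.7%. *Foxp3* itself, the lineage factor, was sparse. It was counted in 78 of 352 positive and 165 of 881 negative cells (48.7 and 49.7 CPM), although the Tregs that were loaded had been sorted on the reporter. The labels do not give the sort gate of single cells, which are called Treg here by their transcripts. By the markers above the 2 groups were both Treg, and *Foxp3* transcript did not separate them.

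Among knockout Tregs, 28.5% had a *Tnfrsf9* UMI (Clopper-Pearson 26.0 to 31.2%), with a median depth of 4008 UMIs. The background was read in CD8 T cells with naive markers (at least 2 UMIs of naive marker genes, among them *Ccr7* and *Lef1*) and no UMI of *Gzmb*, *Pdcd1*, *Lag3* or *Ifng*, which should lack CD137. There, 15 of 490 cells had a UMI (3.06%, 1.72 to 4.999%) at a median depth of 4980. With every cell thinned to 2000 UMIs, the shares were 16.9% (14.8 to 19.2%) of 1200 Tregs and 1.64% (0.710 to 3.205%) of 488 naive-marker CD8 T cells, with 33 and 2 shallower cells left out. The share in Tregs thus lay above this background with and without thinning. In wild-type Tregs the corresponding values were 48.5% (661 of 1362) unthinned and 33.9% thinned.

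The residual transcript was thinly but unevenly spread. Of the 727 *Tnfrsf9* UMIs in knockout Tregs, 27.5% sat in the 29 cells with 5 or more. A single UMI was found in 194 cells, 2 to 4 UMIs in 129, and the highest cell held 16. The cells just inside the threshold (1 UMI) were thus 55.1% of the members, and the cells just outside it (0 UMIs) were all 881 of the comparison group. In wild-type Tregs, 192 of 661 positive cells held 5 or more UMIs and the highest held 53.

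**Figure D1:**
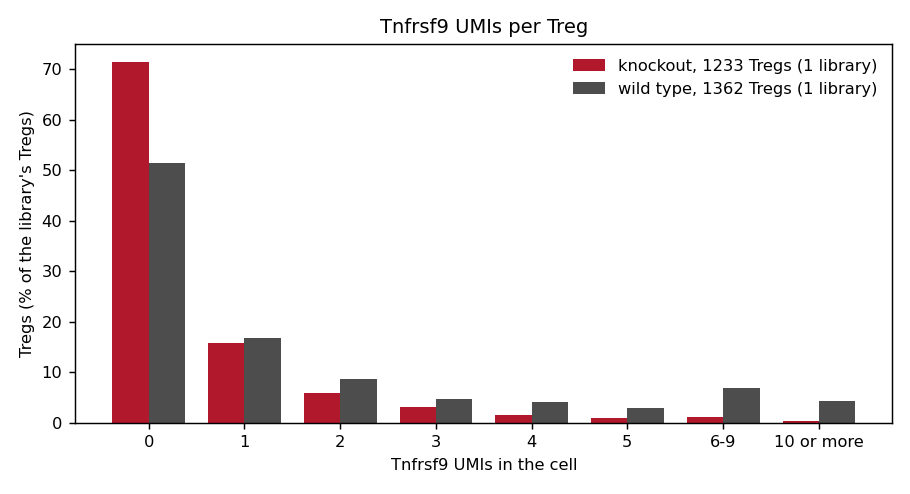
*Tnfrsf9* UMIs per cell (x axis, grouped) against the share of each library's Tregs (y axis, %), for 1233 knockout and 1362 wild-type Tregs, 1 library each. Knockout cells with a UMI mostly held 1 UMI (194 of 352), and the wild-type bars lie higher in every class from 1 UMI up.

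The share of Tregs in which a *Tnfrsf9* UMI was counted rose with depth. The share of positive cells was 15.96% in the shallowest quartile of knockout Tregs (572 to 3090 UMIs), 19.4% in the next, 34.4% in the third and 44.3% in the deepest (5718 to 17539 UMIs). Positive cells had a median of 5031.5 UMIs other than *Tnfrsf9* and negative cells 3739. Each positive cell was therefore paired with 1 negative cell of nearly the same depth. This left 344 pairs with medians of 4990 and 4985.5 UMIs, and 8 positive cells found no partner. The pairs had medians of 2090 and 2079 genes per cell, 1.52 and 1.51% mitochondrial UMIs, and 19.7 and 22.3% UMIs from ribosomal protein genes. The lower ribosomal protein share moved with the positive cells; its part in the results was not tested.

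**Figure D2:**
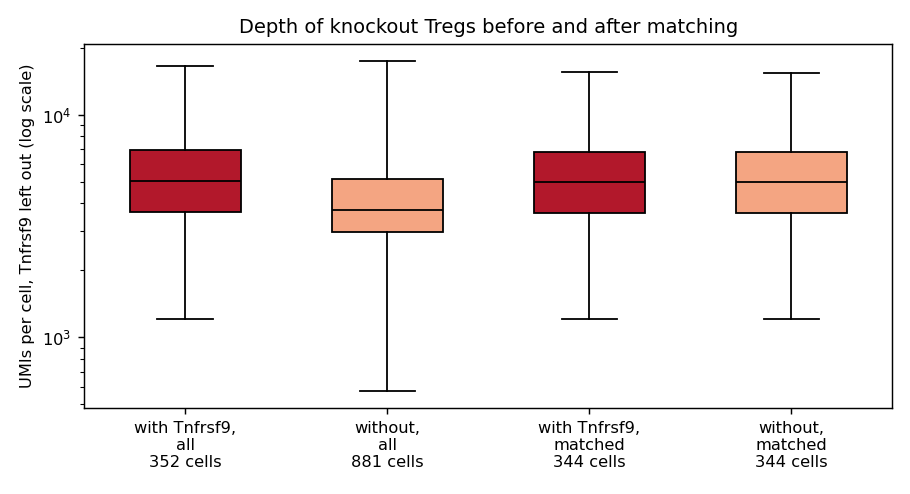
UMIs per knockout Treg with *Tnfrsf9* left out (y axis, log scale) for cells with and without *Tnfrsf9*, before and after matching; boxes give quartiles and median, whiskers the lowest and highest cell. The medians of 5031.5 and 3739 before matching became 4990 and 4985.5 after it.

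In the matched knockout cells, 6779 genes had at least 60 UMIs over both groups. Of these, 36 were at least 2-fold higher in the positive cells (0.531% of genes tested) and 10 at least 2-fold lower (0.148%), and the median log2 ratio over all genes was 0.03. The split between higher and lower genes depended on the processing. It was 55 and 58 of 7879 genes tested without depth matching and 45 and 67 of 5542 with cells thinned to 2000 UMIs. In cells without naive markers it was 22 and 24 of 3779. The genes of largest ratio were named by a rule of size (the 16 highest and the 12 lowest on a log2 scale with 20 CPM added). All ratios below are log2 of CPM in positive over negative matched cells, without the added CPM.

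The 16 higher genes included 2 growth and repair factors or their receptors. *Areg* (amphiregulin, an EGF receptor ligand that Tregs make in tissue repair) stood at 72.0 CPM (60.5 to 85.2) in positive and 17.4 (11.97 to 24.4) in negative cells, a log2 ratio of 2.05 (1.49 to 2.65). It was counted in 47 positive and 19 negative cells, and 12.4% of its UMIs came from 1 cell. *Bmpr2*, a receptor for bone morphogenetic proteins, stood at 144 and 69.0 CPM (1.06, 0.75 to 1.37). The *Areg* transcript was thus carried by a minority of the cells, while *Bmpr2* was found in 122 positive and 89 negative cells.

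Both chains of the integrin αvβ8, which releases active TGF-β from its latent complex, were among the 16. *Itgb8* stood at 205 CPM (185 to 226) against 100.1 (86.4 to 115), a log2 ratio of 1.03 (0.78 to 1.29), and *Itgav* at 454 (425 to 486) against 255 (233 to 279), a ratio of 0.83 (0.67 to 1.00). After thinning, an *Itgb8* UMI was found in 30.3% of positive and 13.2% of negative cells, a difference of 17.1 points (10.9 to 23.1). The TGF-β1 gene *Tgfb1* was also higher, at 263 and 172 CPM (0.61, 0.41 to 0.82). The integrin chains were found in more positive than negative cells, 160 against 91 for *Itgb8* and 229 against 188 for *Itgav*.

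Surface molecules of cell contact and inflammation followed. *Alcam*, the ligand of CD6, stood at 247 CPM (225 to 271) against 93.8 (80.5 to 109), a log2 ratio of 1.40 (1.15 to 1.65). The share of thinned cells with an *Alcam* UMI was 27.6% against 12.9%. *Il1r2*, the decoy receptor for interleukin-1, was at 95.2 against 41.6 CPM (1.19, 0.80 to 1.59). *Tnfrsf4* (OX40), a costimulatory receptor of the same family as CD137, was at 1552 against 877 CPM (0.82, 0.74 to 0.91) and was the gene with the most UMIs among the 16. *Klrg1*, an inhibitory receptor of terminally differentiated T cells, was at 48.4 against 19.5 CPM, but in only 26 and 16 cells.

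Transcriptional regulators among the 16 were *Irf8* (216 against 84.9 CPM, log2 1.35, 1.08 to 1.62), *Hivep3*, a zinc finger protein (159 against 69.6 CPM, 1.19, 0.89 to 1.497), and *Nr4a3*, an immediate target of TCR signalling (43.6 against 16.3 CPM, 1.42, 0.81 to 2.06). *Irf8* was found in 125 positive and 75 negative cells, and *Nr4a3* in 47 and 25. The remaining higher genes were *B3galt1* (a galactosyltransferase, 1.60), *Nrn1* (neuritin, 1.26), *Fmnl2* (a formin that elongates actin filaments, 1.85), *Neb* (the actin-binding nebulin, 0.92) and *Erdr1* (1.00). *Fmnl2* rested on 23 positive and 6 negative cells.

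A pair of chemokine genes was left out by the rule because 1 cell held over 20% of their UMIs, and they are named here after their values were seen. *Ccl1* had 85 UMIs in positive and 2 in negative cells, but 93.1% of them came from 1 cell, and 4 positive and 2 negative cells had any. *Xcl1* was found in 15 positive and 8 negative cells, with 32.2% of its UMIs in 1 cell (log2 2.32). Their pooled ratios therefore say little about the group as a whole.

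The 12 lower genes were led by *Fam101b* (also named refilin B, a partner of the actin cross-linker filamin), at 27.9 CPM (20.9 to 36.5) in positive and 66.9 (55.8 to 79.6) in negative cells, a log2 ratio of -1.26 (-1.75 to -0.79). *Klf2*, which keeps T cells quiescent and recirculating, was at 43.6 against 82.2 CPM (-0.91, -1.32 to -0.52). *Ms4a4b*, abundant in naive T cells, was at 223 against 387 CPM (-0.79, -0.97 to -0.62). *Evl*, an actin regulator of the Ena/VASP family, was at 99.9 against 177 CPM (-0.83), and after thinning its share of cells was 16.2% against 31.5%. Among Tregs with a *Foxp3* UMI (68 pairs), *Evl* stood the other way (0.21). Each of these was found in fewer positive than negative cells.

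The others were *Il6ra* (the interleukin-6 receptor, -0.94), *Aff3* (a transcription elongation factor, -0.75), *Txnip* (an inhibitor of thioredoxin and of glucose uptake, -0.86), *Sp140* (-0.93), *Orai2* (a calcium channel subunit, -0.90), *A630014C17Rik* (-1.13), *Gm12185* (-0.86) and *Gm42418* (-0.66). *Gm42418* overlaps ribosomal RNA sequence, and it stood above equal levels when positive cells were those with at least 2 *Tnfrsf9* UMIs (0.22), so its direction is not firm.

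**Figure D3:**
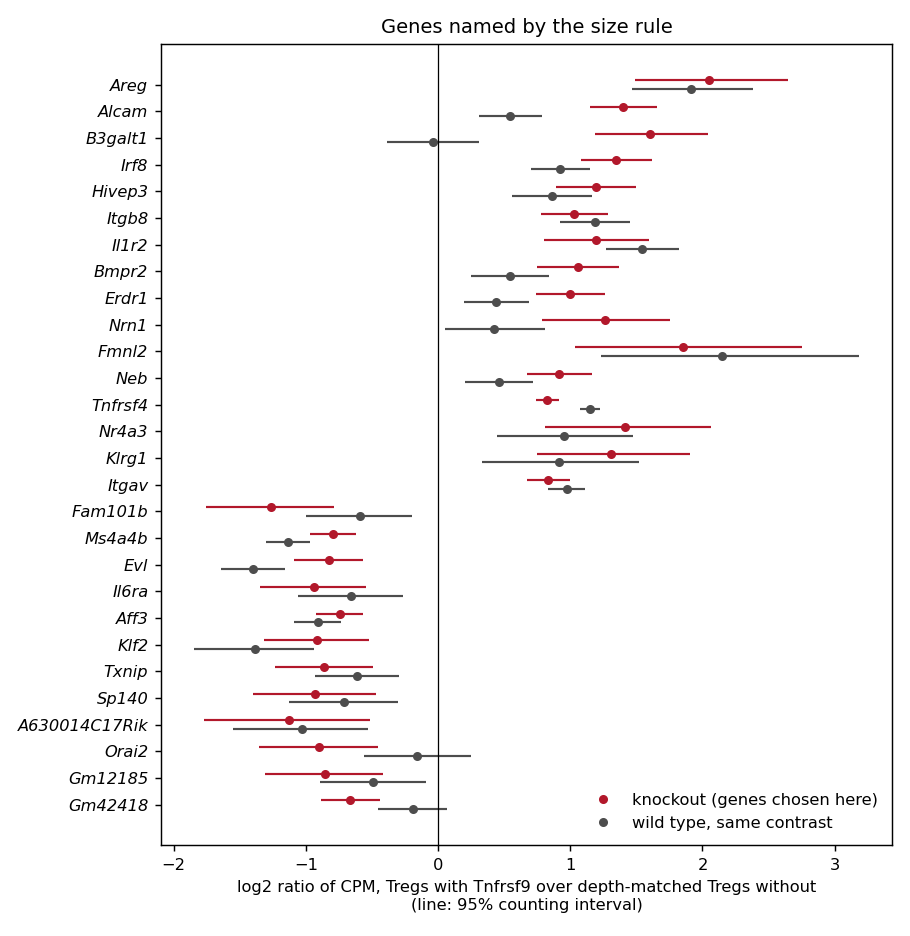
Log2 ratio of CPM (x axis) in Tregs with over depth-matched Tregs without *Tnfrsf9*, with 95% counting intervals, for the 28 genes chosen by size in the knockout, and the same contrast in wild type. The knockout ratios run from 2.05 for *Areg* to -1.26 for *Fam101b*, as the genes were chosen by size, and the wild-type ratios of *B3galt1* (-0.04) and *Orai2* (-0.16) lie near 0.

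Lists of related genes are given as a description, with the median and range of their log2 ratios. They were chosen with earlier results of these data known. Several hold genes named above by size in the same cells, so the lists are no independent support for those genes. Beside each list, the median over all genes was 0.03, and 53.9% of the 6779 genes were above 0. Of the 11 other receptors and costimulators of the TNF receptor family, 8 had 60 UMIs, 5 were higher and 3 lower, none by 2-fold, and the median was 0.32 (range -0.66 to 0.82). *Tnfrsf18* (GITR) was at 686 CPM (649.5 to 725) against 459 (429 to 491), *Tnfrsf1b* (TNF receptor 2) at 339.7 against 215 and *Tnfrsf8* (CD30) at 38.9 against 22.7. *Cd27* was level at 455 and 434 CPM (0.07, -0.07 to 0.21), and *Tnfrsf25* (DR3) was lower at 18.4 against 29.0 CPM (-0.66, -1.31 to -0.02). The 4 receptors furthest above 0 were OX40, CD30, TNF receptor 2 and GITR, all known from activated Tregs, and *Fas* (-0.09) and *Tnfrsf13b* (-0.18) were near 0.

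All 25 TRAF and NF-κB genes could be measured. Of these, 20 were higher and 5 lower, none by 2-fold, and the median was 0.35 (-0.26 to 0.82). Of the adaptors that CD137 itself recruits, *Traf1* was nearly level at 216 against 205 CPM (0.07, -0.13 to 0.28), and *Traf2* was at 41.0 against 30.04 CPM (0.45, -0.06 to 0.97), with an interval that included 0. NF-κB subunits stood higher. *Nfkb1* was at 416 CPM (388 to 447) against 252 (230.4 to 276), *Rel* at 266 against 185, *Relb* at 128 against 78.0 and *Nfkb2* at 63.6 against 43.7. The feedback inhibitors *Nfkbia* (856 against 549.7 CPM, log2 0.64, 0.53 to 0.75) and *Nfkbid* (0.82) were higher as well, while the feedback deubiquitinase gene *Tnfaip3* differed little (0.11, -0.07 to 0.29). *Map3k14*, which encodes the NIK kinase, was at -0.16 (-0.58 to 0.27). RefSeq promoter windows were found for 21 of these 25 genes, and those of 5 held the κB letters (*Nfkb2*, *Nfkbia*, *Rel*, *Tnfaip3* and *Traf3*), in 6 of 30 windows, against 1.41% of all windows. The AP-1 letters were likewise in 6 of the 30 windows, those of 4 genes, against 6.75% of all windows. Windows of 1 gene are not independent: *Nfkb2* gave 2 of the κB windows and *Ikbkg* 3 of the AP-1 windows. Of all 27025 genes, 447 had the κB letters and 2113 the AP-1 letters. The list was put together from NF-κB genes, so its share of κB letters is no result about these cells. Of the 16 higher genes named above, 12 had windows, and 0 of their 14 windows held the κB or the AP-1 letters.

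Of the 18 TCR-induced genes, 15 had 60 UMIs, 14 were higher and 1 lower, 2 by at least 2-fold (*Irf8* and *Nr4a3*), and the median was 0.47 (-0.01 to 1.42). *Nr4a1*, the usual reporter of TCR signal strength, was at 104 CPM (89.6 to 119) against 55.9 (45.7 to 67.6). *Batf* and *Bhlhe40* had ratios of 0.49 and 0.78. *Cd5*, a surface marker set by TCR affinity, was level (-0.01, -0.17 to 0.15). Immediate early and stress genes, which tissue dissociation can also induce, had a median of 0.12 over 11 genes. Of these, 9 were higher and 2 lower, none by 2-fold. They ran from *Jun* at -0.17 (-0.33 to 0.00) to *Dusp1* at 0.65, with *Fos* at 0.04 (-0.16 to 0.24) and *Jund* at 0.56. The median turned to -0.19 without matching and -0.20 after thinning.

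Treg identity genes had a median of 0.39 over 12 genes, of which 11 were higher, 1 of them (*Itgb8*) past 2-fold, and 1 (*Gpr83*, -0.43) lower. *Cd4*, *Foxp3*, *Il2ra* and *Ikzf2* also served in the rule that admits Tregs, in both groups alike. *Il2ra* (CD25) was at 272 CPM (249.4 to 297) against 164 (146 to 183) and *Ctla4* at 1890.5 against 1351. *Ikzf2* (Helios) differed less, at 2438 against 2056 CPM (0.25, 0.18 to 0.31). *Foxp3* was at 48.4 CPM (39.0 to 59.3) against 41.1 (32.5 to 51.3), a ratio of 0.23 (-0.22 to 0.69).

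Of 20 suppressive effector genes, 19 were measured, 17 higher and 2 lower, with 1 past 2-fold and a median of 0.40 (-0.41 to 1.35). The 1 past 2-fold was *Ccr8*, a chemokine receptor of tissue Tregs, at 33.7 CPM (25.9 to 43.0) against 13.2 (8.53 to 19.5). *Il10* was at 153 against 94.3 CPM (0.70, 0.42 to 0.97). *Lag3* (0.11) and *Entpd1* (CD39, 0.01) were close to level, and *Cxcr3*, a chemokine receptor of type 1 inflammation, was lower (-0.41, -0.65 to -0.16). Tissue repair genes had a median of 0.28 over 15 of 16 genes, with 12 higher, 3 lower and 4 past 2-fold. The median was -0.044 in cells without naive markers and 0.07 in wild type. The 4 genes past 2-fold were *Areg*, *Klrg1*, *Nfil3* (1.18) and *Il1rl1*, which encodes the interleukin-33 receptor ST2 (38.4 against 17.9 CPM, 1.10, 0.49 to 1.73).

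Quiescence and recirculation genes went the other way. Of 15, 12 were measured, 9 were lower and 3 higher, none by 2-fold, and the median was -0.45 (-0.91 to 0.58). *Lef1* was at 157 CPM (139.9 to 176) against 230.3 (209 to 253), *Tcf7* at 50.0 against 83.8 and *S1pr1*, the receptor for exit from tissue, at 60.5 against 87.5. The exceptions were *Il7r*, higher at 65.2 against 43.7 CPM (0.58, 0.16 to 0.99), and *Satb1* (0.11) and *Foxo1* (0.06), whose intervals included 0.

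The lists of survival, interleukin-2, follicular, glycolysis and interferon genes lay closer to the median of all genes. Survival and death genes had a median of 0.20 over 15 genes, with the anti-apoptotic *Bcl2l1* higher (73.1 against 44.3 CPM) and *Bcl2* lower (99.4 against 140.2). Genes of interleukin-2 and STAT5 signalling had a median of 0.11 over 16, led by *Cish* (0.81). Follicular and recently activated Treg genes had a median of 0.20 over 16, with *Cd200* at 0.75 and *Tcf7* and *Slamf6* (-0.59) lower. Glycolysis genes had a median of 0.12 over 12, and *Gapdh* was at 797 CPM in both groups. Interferon response genes had a median of -0.08 over 10, with *Gbp2* the furthest below after *Rtp4* (-0.68 and -0.75).

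Among the ligands of the TNF family, 6 of 11 were measured, 5 higher and 1 lower, with a median of 0.46 that came to -0.0069 without matching and -0.091 after thinning. There were 2 past 2-fold (*Lta*, 33.1 against 15.8 CPM, and *Tnfsf10*, which encodes TRAIL, 43.6 against 21.6). *Tnfsf9*, which encodes the CD137 ligand, had 9 UMIs in positive and 10 in negative cells. A difference in this ligand was not detectable at this depth. *Ltb*, the most abundant of the 6, was at 1079 against 995 CPM (0.12, 0.03 to 0.21), and *Cd40lg* at 17.3 against 26.9 CPM (-0.63, -1.31 to 0.03).

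**Figure D4:**
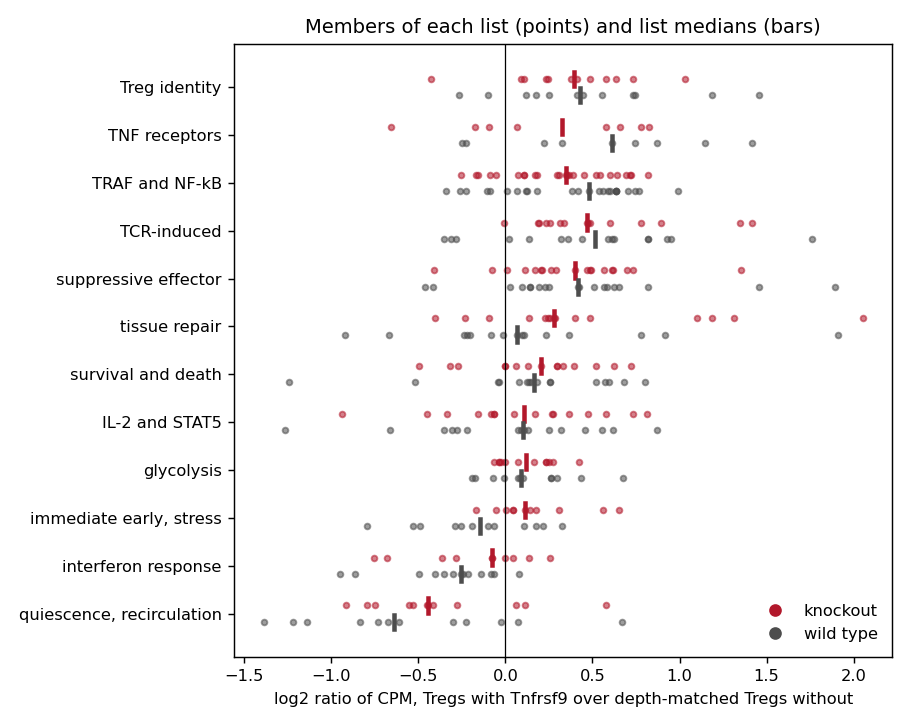
Log2 ratio of CPM (x axis) for each measured member (points) of 12 gene lists and the list median (bars), in knockout and in wild type. The knockout medians run from 0.47 for TCR-induced genes to -0.45 for quiescence genes, against 0.03 over all genes.

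The ratios were also taken by the number of *Tnfrsf9* UMIs, each class against its own matched partners: 190 cells with 1 UMI, 127 with 2 to 4 and 27 with 5 or more. *Tnfrsf4* stood at 1191, 1869 and 2300.4 CPM in these classes and its partners at 888, 875 and 819, which gives log2 ratios of 0.42 (0.30 to 0.55), 1.09 (0.96 to 1.23) and 1.49 (1.21 to 1.78). The intervals of the first and second class did not overlap. *Alcam* had ratios of 0.90, 1.77 and 2.14, *Nfkb1* of 0.24, 1.03 and 1.48, and *Itgb8* of 0.70, 1.06 and 2.58. Cells with a single UMI already stood apart from their partners for *Tnfrsf4*, *Alcam* and *Itgb8*, and the first interval of *Nfkb1* reached 0. Over all genes named by size, the ratio moved further from 0 with each class for 9 of the 16 higher and 4 of the 12 lower genes. These genes were chosen by their ratios in the same cells, and the order was not counted over all genes tested. The counts, and the ratios of named genes in cells with a single UMI, are therefore descriptions.

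The others did not follow that order. *Areg* had ratios of 1.46, 3.39 and 1.41, *B3galt1* of 1.65, 1.74 and 0.91, and *Nr4a3* of 1.72, 1.30 and 1.16. *Klrg1* was found at 51.2 and 55.8 CPM in the first 2 classes and had no UMI in the 27 cells with 5 or more. *Nfkbia* had ratios of 0.61 and 0.63 in the first 2 classes and 0.78 in the third, with overlapping intervals. The summed tissue repair genes were higher in the first 2 classes (0.20 and 0.30) and lower in the third (-0.28, -0.40 to -0.15). Summed TNF receptor genes had ratios of 0.33, 0.78 and 0.85. *Tnfrsf4*, itself named by size, held 1187 of 2699, 1373 of 2669 and 392 of 729 of their UMIs in these cells. The sum without *Tnfrsf4* was not taken. Summed NF-κB genes had ratios of 0.27, 0.46 and 0.62, and summed quiescence genes of -0.31, -0.38 and -0.50. Summed TCR-induced genes were at 0.36, 0.45 and 0.45. Suppressive effector genes (0.25, 0.47 and 0.22) and Treg identity genes (0.33, 0.38 and 0.31) did not rise with each class. *Klf2* had 1 UMI in the class of 5 or more (5.87 CPM, against 112 in the partners). The third class holds 170407 UMIs in all, and its values are the least precise.

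**Figure D5:**
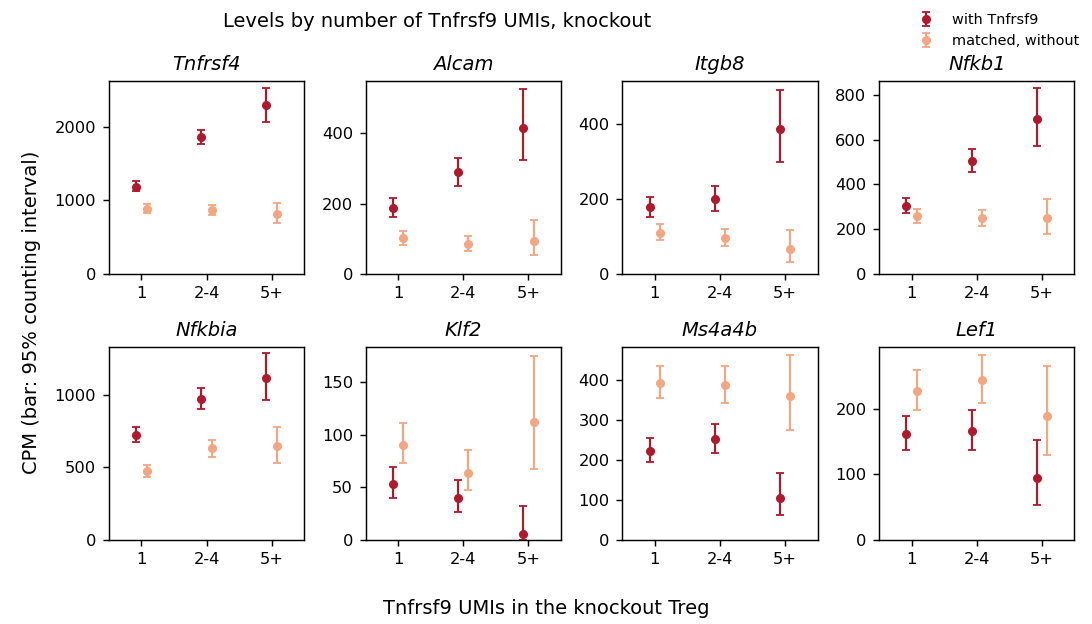
CPM (y axes, from 0) of 8 genes in knockout Tregs with 1, 2 to 4 and 5 or more *Tnfrsf9* UMIs (x axis) and in their matched partners without, with 95% counting intervals. *Tnfrsf4* stands at 1191, 1869 and 2300.4 CPM across the classes, while its partners stay between 819 and 888.

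Genes next to *Tnfrsf9* on chromosome 4 were looked at because the cells had been selected by a transcript of this locus. *Park7*, the nearest gene upstream, had 436 UMIs in both groups (log2 0.00, -0.20 to 0.19), *Vamp3* was at -0.08 (-0.58 to 0.41), and *Camta1*, which overlaps *Tnfrsf9* on the other strand, was at 0.14 (-0.27 to 0.54). *Errfi1* had 41 and 17 UMIs, a log2 ratio of 1.27, but fell under the minimum of 60. The intervals of all 3 neighbours with 60 UMIs included 0, so the neighbours were not all level.

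Markers of other cells were low in both groups. The 5 B cell genes in the files summed to 8 UMIs in each group, with *Ms4a1* among those at 0. Natural killer genes summed to 18 in each, and erythroid genes to 1 in each. Of the 11 myeloid markers, 1 (*Cd74*) reached 60 UMIs, the list summed to 102 against 91.7 CPM, and *Csf1r* and *Itgax* were at 0. Acinar genes summed to 42.1 against 62.7 CPM and endocrine genes to 24.7 against 25.3. Cytotoxic genes were the exception. They summed to 1211 CPM in positive and 965 in negative cells, carried by *Nkg7* (0.38), *Ccl5* (0.62) and *Ccl4* (-0.08), with *Gzmk* lower (-0.54, -1.27 to 0.18), while the killer cell receptors *Klrc1*, *Klrd1* and *Klre1* had at most 10 UMIs in either group. By number of *Tnfrsf9* UMIs the 4 measured cytotoxic genes had summed ratios of 0.63 (1 UMI), -0.43 (2 to 4) and 1.63 (5 or more), so they kept no single direction. Genes of conventional CD4 T cells summed to 108 against 82.8 CPM, of which *Tnfsf8* held most, with *Il17a* at 0. Endothelial and stromal genes summed to 75.2 against 104 CPM, nearly all of it *Pecam1*, with *Cdh5*, *Kdr*, *Dcn* and *Sparc* at 0. Tregs can express *Nkg7*, *Ccl5* and *Pecam1* too, and the part of other cells in the results was not tested.

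The same contrast in wild type, where the receptor can be made, used 481 matched pairs with medians of 4244 and 4070 UMIs. These pairs had medians of 1884 and 1776 genes per cell. Of 661 positive cells, 180 found no partner, and the median of the positive cells fell from 5017 to 4244 UMIs. The wild-type pairs were thus shallower and less evenly matched than the knockout pairs. The part of this in the differences between genotypes was not tested. In wild type, 64 of 7217 genes (0.887%) were at least 2-fold higher and 34 (0.471%) at least 2-fold lower. Of the 36 genes 2-fold higher in the knockout, 7 were so in wild type (19.4% of the knockout and 10.9% of the wild-type genes), and of the 34 that could be measured in both, 29 were above 0 in wild type, where 57.8% of all genes tested were. Of the 10 genes 2-fold lower, 3 were so in wild type and 8 were below 0, where 42.2% of all genes lay at or below 0. Over 6666 genes the 2 sets of ratios had a Spearman rho of 0.34 and a Pearson r of 0.39. These are descriptions across genes, which are not independent.

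List medians were close in the 2 genotypes for Treg identity (0.39 in knockout, 0.43 in wild type) and NF-κB genes (0.35 and 0.48). So were those of TCR-induced (0.47 and 0.52) and suppressive effector genes (0.40 and 0.42). They were further apart for TNF receptors (0.32 and 0.61), immediate early genes (0.12 and -0.14) and tissue repair genes (0.28 and 0.07). Quiescence genes were below 0 in both, at -0.45 and -0.64, and TNF ligands were the furthest apart (0.46 and -0.51). Each median covers the members measured in that library. These were 8 and 9 TNF receptors, 11 and 12 immediate early genes, and 15 and 16 TCR-induced genes. Among the ligands, *Lta* differed between genotypes by 1.57 (0.62 to 2.52) and *Tnfsf10* by 1.27 (0.55 to 1.98). *Itgb8*, *Itgav*, *Areg* and *Relb* had wild-type ratios of 1.18, 0.97, 1.91 and 0.74, against 1.03, 0.83, 2.05 and 0.72 in the knockout. Other ratios were further apart. *Alcam* was at 1.40 in the knockout and 0.55 in wild type, a difference of 0.85 (0.51 to 1.19), and *B3galt1* differed by 1.64 (1.11 to 2.17). *Nr4a1* was at 0.89 in the knockout and 1.76 in wild type, a difference of -0.87 (-1.33 to -0.41), and *Tnfrsf4* at 0.82 and 1.15.

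Wild-type positive cells held more *Tnfrsf9* UMIs each. When wild-type *Tnfrsf9* UMIs were thinned to the knockout level before cells were called, 410 pairs were left. Of 7178 genes tested, 69 were then at least 2-fold higher and 23 lower. The wild-type ratio then became 0.96 for *Areg*, 0.50 for *Irf8* and 0.03 for *Klrg1*, further from the knockout values than before. *Itgb8* (0.84) also moved slightly further away, and *Itgav* (0.92), *Tnfrsf4* (1.02) and *Klf2* (-1.25) came closer. *Nr4a1* came to 0.97 (0.72 to 1.23), close to its 0.89 in the knockout. *Alcam* (0.52) and *B3galt1* (-0.43) came no closer to their knockout ratios of 1.40 and 1.60. The cause of these differences between genotypes was not tested. *Lta* stayed at -0.44 and *Tnfsf10* came to 0.17. With 1 library per genotype, a difference between the genotypes and a difference between the pools cannot be told apart.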

How the data were processed

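Counts of UMIs per gene and cell for 27998 genes were deposited by the authors for 2 libraries, made with Cell Ranger 7.0.0 on mm10 per the submitters' processing notes; no normalization had been applied. Genotypes were taken from the sample titles, and sorting, pooling and ages from the study's methods. The cell filter was 200 to 5000 detected genes and a mitochondrial share up to 20%. A Treg had no *Cd8a* or *Cd8b1* UMI, at least 1 UMI of *Cd4*, *Foxp3*, *Il2ra* or *Ikzf2*, at least 3 of *Cd3d*, *Cd3e* and *Cd3g*, under 20 of *Jchain*, and under 3 of *Mki67*, *Top2a*, *Birc5*, *Ube2c* and *Cdk1*. Positive and negative cells were paired on log10 UMIs other than *Tnfrsf9* (caliper 0.02, no cell used again), UMIs were summed, and CPM was computed without *Tnfrsf9*. Ratio intervals were exact conditional binomial, CPM intervals exact Poisson, shares Clopper-Pearson, differences of shares Newcombe and differences of log2 ratios normal approximations, all at 95%. Python 3.11.15, numpy 2.4.6, scipy 1.17.1 and pandas 2.3.3 were used, and the scripts were tested on simulated data. Named genes were the 16 highest and 12 lowest ratios with 20 CPM added, at least 60 UMIs, at most 20% of UMIs in 1 cell, and no receptor segment or mitochondrial gene. The members and gene lists were chosen with earlier results of these data known, and the naive-marker CD8 definition was loosened after a stricter one left too few cells. Single members of some gene lists are not reported here.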

Additional observations from a re-analysis of the deposited data

Results flagged for a closer look

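Of 203 named or listed genes measured in both libraries, 4 had ratios in opposite directions in knockout and wild type with both counting intervals clear of 0. The 203 were chosen by size or by list, and no share over all genes is given beside them. The count is therefore a description of these genes alone. *Tnfsf8*, which encodes the CD30 ligand, had a log2 ratio of 0.80 (0.38 to 1.24) in knockout and -1.14 (-1.49 to -0.79) in wild type. It stood at 66.3 CPM in positive and 37.9 in negative knockout cells, in 41 and 32 cells, and at 43.2 and 94.98 CPM in wild type. *Cd69*, an early activation marker that also retains cells in tissue, was at 0.26 (0.06 to 0.45) and -0.35 (-0.54 to -0.16). The calcium-binding proteins *S100a4* and *S100a6* were at 0.24 (0.13 to 0.36) and 0.28 (0.20 to 0.36) in knockout and at -0.24 and -0.22 in wild type. The thinned shares of cells with a UMI showed these directions clearly only for *Tnfsf8* in wild type. There it was found in 4.44% of positive and 9.73% of negative cells, a difference of -5.29 points (-8.65 to -2.03). In the knockout, the intervals of all 4 share differences included 0 (58.8 against 58.2% for *S100a6*). In wild type, *S100a6* and *S100a4* were found in slightly more positive than negative cells (60.7 against 54.97% and 40.6 against 39.3%), opposite to their CPM. In the 27 knockout cells with 5 or more *Tnfrsf9* UMIs, *Cd69* and *S100a4* were below their partners (-0.81 and -0.66). With 1 library per genotype, these differences between genotypes were not tested.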

How the results depend on the processing

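The share of *Tnfrsf9*-positive knockout Tregs was 16.9% after thinning, 32.1% among Tregs with a *Foxp3* UMI and 12.8% with at least 2 *Tnfrsf9* UMIs. The 36 higher and 10 lower of 6779 genes tested became 55 and 58 of 7879 without matching. Where a *Foxp3* UMI was required (68 pairs), 19 of 2374 were higher. In cells without naive marker UMIs (142 pairs) the counts were 22 and 24 of 3779. They became 131 and 111 at a minimum of 20 UMIs and 9 and 0 at 200 UMIs, settings that also change the number of genes tested. The lower genes alone became 22 of 4659 with at least 2 *Tnfrsf9* UMIs and 67 of 5542 with cells thinned to 2000 UMIs. With negative cells weighted by depth bin they became 24. Counts over unlike numbers of genes tested do not compare directly. In wild type, 105 and 79 of 8079 genes passed without matching. Of 14 list medians, 8 kept their sign under all 12 alternatives run, among them Treg identity (0.24 to 0.53), NF-κB (0.22 to 0.53), TCR-induced (0.28 to 0.53), suppressive effector (0.28 to 0.57) and quiescence genes (-0.70 to -0.24). The other 6 changed sign under 1 to 3 alternatives: glycolysis, interleukin-2, interferon, immediate early, tissue repair and TNF ligand genes (-0.091 to 0.50). Values far from the reported ones were immediate early genes without matching (-0.19) and thinned (-0.20), interferon genes without matching (-0.44), TNF receptor genes with at least 2 *Tnfrsf9* UMIs (0.66) and tissue repair genes in cells without naive markers (-0.044). Of 336 alternative ratios of named genes, 284 stayed within the counting interval of the reported value, 48 moved outside it in the same direction and 4 changed sign. *Gm42418* turned to 0.22 with at least 2 *Tnfrsf9* UMIs, 0.28 with a *Foxp3* UMI required and 0.064 without naive markers, and *Evl* to 0.21 with a *Foxp3* UMI required. The cause was not tested. Chosen after the data were seen, leaving out shared barcodes gave 38 and 8 of 6763 genes and 28.5%. Leaving out genes with over 20% of UMIs in 1 cell gave 33 and 10. No paired analysis was possible because each genotype has 1 library.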

Other observations

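Among the 36 genes at least 2-fold higher in *Tnfrsf9*-positive knockout Tregs, several outside the named 16 belong to signalling and its feedback. They were picked from that count after their values were seen. *Fosl2*, a subunit of AP-1, had 60 UMIs in positive and 19 in negative cells, a log2 ratio of 1.66 (1.11 in wild type). *Map2k3*, a kinase upstream of p38, had 166 and 82 UMIs (1.01, and 0.87 in wild type), and *Gadd45g*, a stress-induced activator of p38 signalling, had 84 and 37 (1.18, and 0.24 in wild type). *Spry1*, a feedback inhibitor of receptor tyrosine kinase signalling, had 47 and 22 UMIs (1.09, and -0.16 in wild type).

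The signalling receptor for interleukin-1, *Il1r1*, had 55 and 25 UMIs (1.13, and 0.99 in wild type), beside the decoy receptor *Il1r2*. Of the 10 genes at least 2-fold lower, *Cd55*, a complement regulator, had 26 UMIs in positive and 53 in negative cells (-1.03, and -1.60 in wild type), and *Idh2*, a mitochondrial isocitrate dehydrogenase, had 21 and 48 (-1.20, and -0.54 in wild type). *Klhl26* and *Pmm1* were lower in the knockout (-1.04 and -1.14) but not in wild type (0.61 and 0.03). Most of these genes rest on few UMIs.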
